A study of Homo sapiens with 36 samples.

Results

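The genes described here are 10 transcripts of inflammatory signalling in kidney tubule cells, namely the secreted proteins IL6, LIF, CXCL8, CXCL1, CXCL2, CCL20 and CCL2, the adhesion molecule ICAM1, and the NF-kB inhibitors TNFAIP3 and NFKBIA. They were taken by symbol from the annotation of the array platform, which held 17 probe sets for them. Each gene was represented by its brightest probe set on average over all 36 arrays. Of the 10 genes, 9 passed the filter on low values (above 4 on the log2 scale on at least 3 arrays) and stood among the 11092 genes tested. The remaining one, CXCL1, did not: its probe set read between 2.49 and 2.63 on every array, which is background, so it has no test.

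NF-kB is a family of dimeric transcription factors that inhibitor proteins of the IkB class hold in the cytoplasm. Kinases activated by cytokine receptors, by danger signals and by several kinds of chemical stress mark the inhibitors for destruction, and the freed dimers then switch on genes for cytokines, chemokines and adhesion molecules. They also switch on their own brakes, among them NFKBIA, which encodes an IkB protein, and TNFAIP3, which encodes the ubiquitin-editing enzyme A20. Injured proximal tubule cells are a known source of such chemokines in the kidney. AP-1, ATF and other stress factors act on many of the same genes, so their transcripts do not report on NF-kB alone.

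The 36 single-colour arrays were hybridised with RNA of HK-2 cells, a proximal tubular line of human kidney immortalized with papillomavirus genes. The labels give 3 compounds only as CdCl, Di and Kbr, and the series asks for expression signatures of toxicity. A first set of 18 arrays compared CdCl and Di with vehicle after 12 h and 48 h. The second set of 18 compared low and high Kbr with vehicle after 24 h and 48 h. There were 12 groups of 3 biological replicates, and the labels give doses no further than low and high. All groups were grown in a medium with EGF, hydrocortisone, insulin and transferrin, and treatment began near confluence. The authors' values are log2 expression computed with GCRMA, and levels are not set against each other between genes. A difference is the first named group minus the second on the log2 scale ± SE of the model, with 3 arrays against 3 and p-values of limma adjusted over all 11092 genes (threshold 0.05). In such bulk samples fewer cells of a type and less RNA per cell cannot be told apart.

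As a check on the cells, 8 of 14 tubular epithelial markers lay above 4 on every array, among them KRT8, KRT18, PAX8 and CDH6, while AQP1, LRP2, CUBN and other markers of the differentiated proximal tubule were at background. None of 7 leukocyte markers, including PTPRC and CD14, rose above 4 on any array, and their summed linear level lay between 38.5 and 41.7 throughout. Of 5 fibroblast markers, COL1A1, DCN and LUM were above 4 on every array, while COL1A2 and PDGFRB were at background on all. The summed linear level of this tubular list, which includes VIM and CDH2, is weighted most by VIM, its brightest gene (mean 13.92). At 48 h the sum was 32072 to 37144 with low Kbr and 28603 to 34202 with high Kbr, against 42825 to 47026 in control. In the first set it was 37836 to 40111 with CdCl and 35494 to 36628 with Di, against 41320.4 to 44915 in control. The sum was lower in all 4 treatments, and its part in the results was not tested. As a measure of RNA quality, the signal at the 3' end of beta-actin exceeded that at its 5' end on average by 1.40 to 1.84 log2 units in groups of the first set and by 0.87 to 1.06 in groups of the Kbr set. For GAPDH the same measure ran from -0.08 to 0.10 in the first set and from -0.11 to -0.07 in the Kbr set. Levels set across the sets also carry the beta-actin difference, whose part was not tested. Arrays of equal number deviated together in the Kbr set. The values with the number as a block are given where they change a call in a comparison that uses Kbr arrays. In the CdCl and Di set the numbers do not pair the arrays. The block changed calls there too, such as LIF in CdCl 12 h (adjusted p = 0.0174), and these are not listed.

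The promoters are shown because NF-kB acts on such genes through sites near their start. RefSeq (GRCh38.p14) promoter windows, 250 bases before to 50 after the transcription start, were available for 8 of the 10 genes; CCL2 and LIF were not among them. The NF-kB consensus was searched on both strands and found in 6 of these 8 windows, against 10.8% of the 27305 promoters in the table. Stretches around each match are printed 5′ to 3′ along the gene, with the match in capitals.
IL6, chr7:22727102-22727161, plus strand: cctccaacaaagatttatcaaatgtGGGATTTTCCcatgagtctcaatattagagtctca
CXCL1, chr4:73869289-73869349, plus strand: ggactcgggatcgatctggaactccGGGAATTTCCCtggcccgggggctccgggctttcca
CXCL2, chr4:74099238-74099298, minus strand: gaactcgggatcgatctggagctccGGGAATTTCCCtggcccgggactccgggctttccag
CCL20, chr2:227813738-227813797, plus strand: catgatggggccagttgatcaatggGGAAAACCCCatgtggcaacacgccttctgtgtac
TNFAIP3, chr6:137867167-137867226, plus strand: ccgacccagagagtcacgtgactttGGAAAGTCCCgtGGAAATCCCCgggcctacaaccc
NFKBIA, chr14:35404796-35404855, minus strand: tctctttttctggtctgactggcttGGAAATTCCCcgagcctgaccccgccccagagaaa
With the start base as 0, the first began at -73 in IL6, -79 in CXCL1, -78 in CXCL2, -79 in CCL20, -67 in TNFAIP3 and -81 in NFKBIA. TNFAIP3 held a second, separate match at -55. CXCL1 and CXCL2 each held a second match on the other strand, at -78 and -77. It overlapped the first, so the capitals there run longer than the consensus. The CXCL1 and CXCL2 windows were near copies, with 85.9% of aligned bases identical, against 54.1% between CXCL1 and CXCL8. The AP-1 motif TGANTCA, which 7.76% of promoters held, occurred in 1 of the 8 windows, that of CXCL8, at -137. The CRE motif TGACGTCA occurred in none (1.98% of promoters), the antioxidant response motif TGACNNNGC in 1, that of NFKBIA (13.6%), and TATAAA in 4 (12%). The windows of CXCL8 and ICAM1 held no match to the NF-kB consensus, which says only that these letters are not in them.

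**Figure D1:**
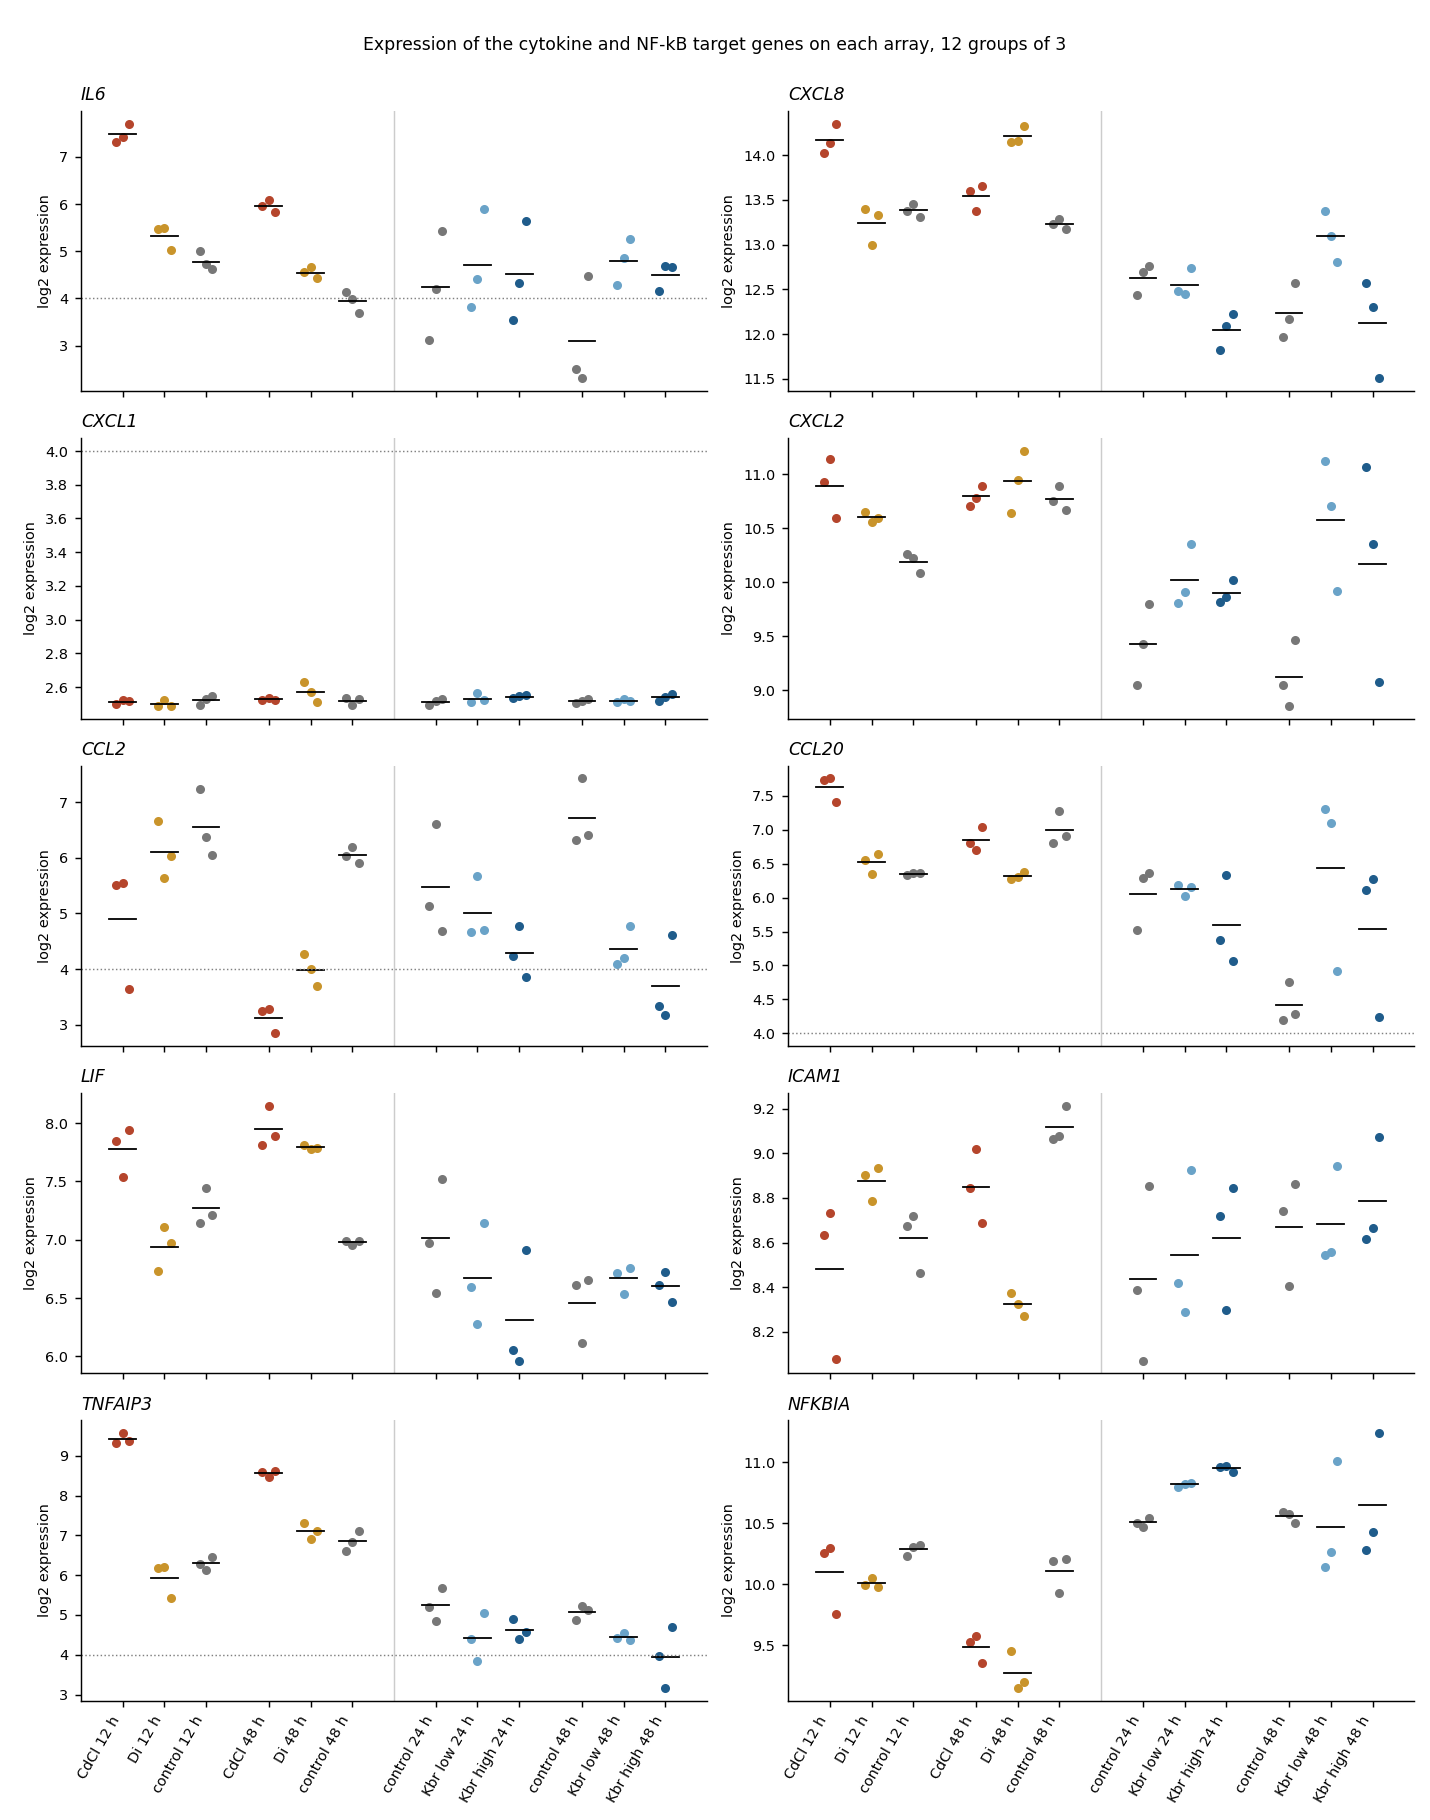
Log2 expression (y axis) of the 10 genes on each of 36 arrays, by group (x axis; points, 3 arrays a group; black bars, group means; dotted line, the filter level of 4). TNFAIP3 stands highest in CdCl 12 h (9.32 to 9.57), CCL2 is below its control in every 48 h treatment, and CXCL1 stays at background in all groups.

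After 12 h of CdCl, 4 of the 9 tested genes were higher than control (all genes: 13.4%) and 1 was lower (30.5%). At 48 h of CdCl, 3 were higher (20.7%) and 2 lower (22.0%). For Di no gene passed at 12 h, when few genes did so at all (1.67% higher and 4.60% lower); at 48 h, 2 were higher (19.1%) and 3 lower (23.9%). At an unadjusted p below 0.05 the Di 12 h comparison also gave 0 of the 9. With low Kbr, 0 were higher (6.93%) and 1 was lower (8.28%) at 24 h, and 4 were higher (23.8%) and 1 lower (23.2%) at 48 h. With high Kbr, 0 were higher (15.4%) and 3 lower (25.3%) at 24 h, and 3 were higher (27.3%) and 2 lower (34.5%) at 48 h. Over the 8 comparisons 29 differences passed, 16 of them rises and 13 falls. These totals have no share of all genes of their own and are read only beside the shares given for each comparison. Both directions occurred, as they did among all genes. The median difference of the 9 genes was 0.70 in CdCl 12 h, against -0.16 for all genes, and lay between -0.47 (high Kbr, 24 h) and 0.21 (low Kbr, 48 h) in the remaining 7 comparisons; with 9 genes, chosen by name and filtered on level, these shares and medians are descriptions. CdCl and Di at one time share their controls, as do low and high Kbr. Once each array was centred on its median, rises made up 42.0% of all calls in CdCl 12 h, against 30.5% without centring. The corresponding shares were 49.6% against 26.6% in Di 12 h (39.8% after quantile normalization) and 48.9% against 37.9% in high Kbr at 24 h.

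**Figure D2:**
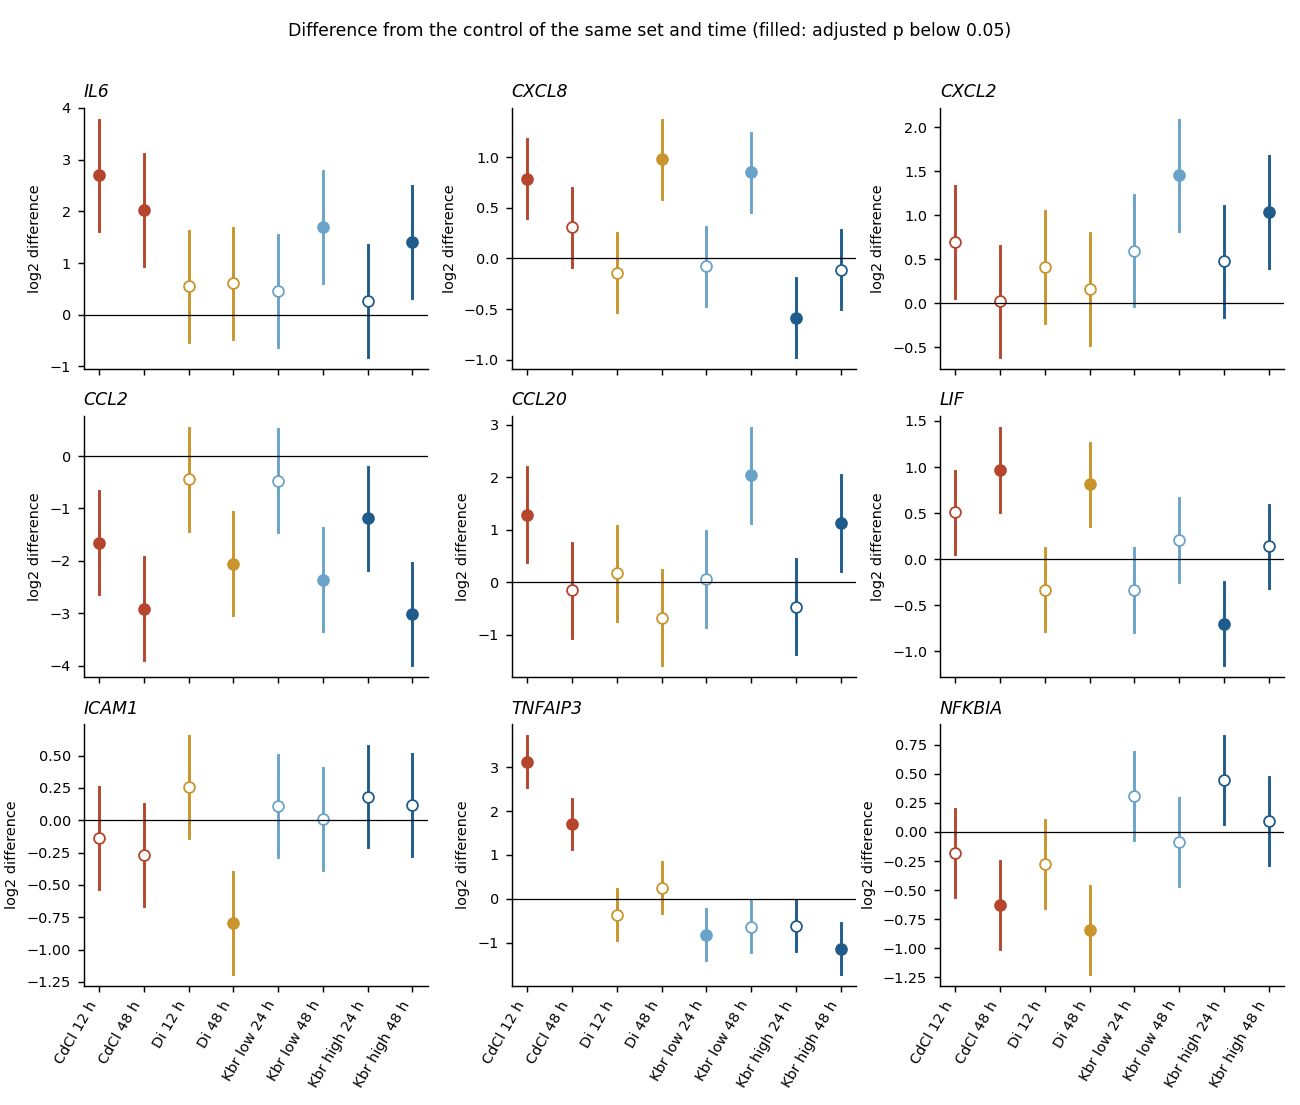
Log2 difference (y axis) of each tested gene from the control of its set and time, for the 8 treatments (x axis; points, differences; lines, 95% confidence intervals; filled points, adjusted p below 0.05). CCL2 is below 0 in all 8 comparisons, and IL6 above 0 in all 8, with 4 of the IL6 intervals reaching below 0.

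The spread between replicates differed by set for all 9 genes, which bears on every test. The within-group SD of IL6 was 0.95 in the Kbr set and 0.20 in the CdCl and Di set, and that of CCL20 was 0.80 and 0.16. Because 1 model pools the sets, its SE is wide for the CdCl and Di set and narrow for the Kbr set. Fitted on the CdCl and Di arrays alone, further differences passed that are not counted here, among them CXCL2 (0.70, adjusted p = 0.000685) and LIF (0.51, adjusted p = 0.00284) in CdCl 12 h, CXCL8 in CdCl 48 h (0.31, adjusted p = 0.0332), and IL6 in Di 12 h (0.55, adjusted p = 0.0293). At 48 h of Di they were IL6 (0.61, adjusted p = 0.00379) and CCL20 (-0.68, adjusted p = 0.000395). Fitted on the Kbr arrays alone, 7 differences from control were lost: TNFAIP3 in low Kbr 24 h (adjusted p = 0.152), CXCL8 (adjusted p = 0.0703), CCL2 (adjusted p = 0.0781) and LIF (adjusted p = 0.0652) in high Kbr 24 h, IL6 in low Kbr 48 h (adjusted p = 0.0652), and IL6 (adjusted p = 0.0984) and CCL20 (adjusted p = 0.115) in high Kbr 48 h. That fit leaves out the pairing of the Kbr arrays by number. With all arrays and the number as a block, each of the 7 passed. The adjusted p-values were 0.0205 for TNFAIP3, 0.0194 for CXCL8, 0.0211 for CCL2, 0.00177 for LIF and 0.0123 for CCL20. For IL6 they were 1.53e-05 with the low and 8.4e-05 with the high dose. The blocked fit also pools the sets, so its SE can still be narrow for the Kbr set. The Kbr arrays alone were not fitted with the block, so these values do not settle the 7 calls.

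IL6 encodes interleukin-6, a cytokine that signals through the shared receptor subunit gp130 and drives the acute-phase response. It was highest after 12 h of CdCl, with levels of 7.31, 7.42 and 7.70 on the log2 scale, against 5.00, 4.73 and 4.62 in control. The groups did not overlap, and the difference of 2.69 ± 0.53, adjusted p = 0.000156, is a 6.47-fold higher level. At 48 h the CdCl cultures read 5.95, 6.09 and 5.83 and the controls 4.14, 3.98 and 3.70. Both groups were lower than at 12 h, and the difference remained (2.02 ± 0.53, adjusted p = 0.00264; at least 3.89-fold higher, since the control mean lay under the filter level). With Di the cultures also lay above every control array, at 5.02 to 5.50 against 4.62 to 5.00 at 12 h and 4.42 to 4.66 against 3.70 to 4.14 at 48 h. Neither difference passed the test (0.55 ± 0.53, adjusted p = 0.595, and 0.61 ± 0.53, adjusted p = 0.383).

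In the Kbr set, IL6 at 48 h read 4.28, 4.86 and 5.26 with low Kbr, 4.15, 4.69 and 4.67 with high Kbr and 2.51, 2.30 and 4.48 in control. Controls 1 and 2 were at background and control 3 was not, so the groups overlapped. Both differences passed (1.70 ± 0.53, adjusted p = 0.0092; and 1.41 ± 0.53, adjusted p = 0.0219), with levels at least 1.74-fold and at least 1.42-fold higher. Each rested on the controls: without control replicate 1 the low-dose difference was 1.41, adjusted p = 0.0579, and without control replicate 2 it was 1.30, adjusted p = 0.069. For the high dose the values were 1.11, adjusted p = 0.108 without control replicate 1, 1.01, adjusted p = 0.134 without control replicate 2, 1.32, adjusted p = 0.0617 without treated replicate 2 and 1.32, adjusted p = 0.0584 without treated replicate 3. At 24 h the low-dose arrays read 3.82, 4.42 and 5.89, the high-dose arrays 3.54, 4.33 and 5.65 and the controls 3.11, 4.19 and 5.43. There the spread between replicates was far wider than the difference between groups (adjusted p = 0.628 and 0.74), and array 3 was the highest in each of the 3 groups. Compared by array number, both doses read above control on every array. With the number as a block neither difference passed (adjusted p = 0.242 with low and 0.465 with high Kbr). Over the 12 group means IL6 ranged across 4.38 log2 units, and 9 of the 11 neighbours in the order of levels overlapped.

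LIF, leukemia inhibitory factor, is a cytokine of the same receptor family as interleukin-6. It rose at 48 h with both CdCl and Di: levels were 7.81, 8.15 and 7.89 in CdCl cells, 7.81, 7.77 and 7.78 in Di cells and 6.99, 6.96 and 6.99 in control. The replicates were tight and the treated arrays all lay above the controls (0.97 ± 0.22, adjusted p = 0.000767; and 0.81 ± 0.22, adjusted p = 0.00375), which is 1.96-fold and 1.75-fold higher. At 12 h the CdCl arrays read 7.84, 7.54 and 7.94, against 7.15, 7.44 and 7.22 in control, a difference that missed the threshold (0.51 ± 0.22, adjusted p = 0.0652) and passed it without CdCl replicate 2 (0.62, adjusted p = 0.0466). Di at 12 h went the other way by -0.33 ± 0.22 (adjusted p = 0.407).

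LIF fell with high Kbr at 24 h, with levels of 6.06, 5.96 and 6.91, against 6.97, 6.55 and 7.52 in control (-0.70 ± 0.22, adjusted p = 0.0126). The groups overlapped, because array 3 was the highest of each. The call was lost without control replicate 3 (-0.45, adjusted p = 0.122), without treated replicate 1 (-0.57, adjusted p = 0.0703) and without treated replicate 2 (-0.53, adjusted p = 0.0897). LIF did not pass in the remaining Kbr comparisons with control, where differences ran from -0.34 with low Kbr at 24 h to 0.21 with low Kbr at 48 h.

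CXCL8 encodes interleukin-8, a chemokine that draws neutrophils through the receptors CXCR1 and CXCR2. Its probe set was bright on all arrays (11.51 to 14.35). After 12 h of CdCl it read 14.02, 14.14 and 14.35, against 13.38, 13.46 and 13.31 in control, a non-overlapping rise of 0.79 ± 0.19, adjusted p = 0.00143 (1.73-fold). By 48 h the CdCl arrays (13.60, 13.37 and 13.65) and the controls (13.23, 13.29 and 13.17) were closer and the difference did not pass (0.31 ± 0.19, adjusted p = 0.2); a second probe set of CXCL8 gave 0.56, adjusted p = 0.0354. The change of the CdCl effect between the times did not pass (-0.48 ± 0.27, adjusted p = 0.206). With Di at 12 h the arrays read 13.40, 13.00 and 13.33, which overlapped the control, and at 48 h 14.15, 14.16 and 14.33, the highest group mean of the 12, with a rise of 0.98 ± 0.19, adjusted p = 0.000113 (1.98-fold).

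With Kbr, CXCL8 fell at the high dose at 24 h and rose at the low dose at 48 h. At 24 h high Kbr gave 11.82, 12.09 and 12.23, against 12.44, 12.69 and 12.76 in control, a fall of the level to 12.04 with a difference of -0.58 ± 0.19, adjusted p = 0.0155; it was -0.52, adjusted p = 0.0566 without control replicate 3 and -0.47, adjusted p = 0.084 without treated replicate 1. At 48 h low Kbr gave 13.37, 13.10 and 12.81, against 11.97, 12.17 and 12.58 in control, a rise of 0.85 ± 0.19, adjusted p = 0.000573 (1.81-fold). High Kbr at 48 h spread from 11.51 in replicate 3 to 12.58 in replicate 1 and did not pass (-0.11 ± 0.19, adjusted p = 0.648).

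CXCL1 and CXCL2 encode close relatives of CXCL8 that act on CXCR2. CXCL1 stayed at background throughout: its group means lay between 2.50 and 2.57. The CXCL2 probe set that was used is of the kind that can bind near-identical transcripts, so the family member behind its signal is uncertain; it read 8.86 to 11.21, while a second CXCL2 probe set was above 4 on 13 of 36 arrays and the remaining one at background on all. CXCL2 rose with Kbr at 48 h. Levels were 11.12, 10.71 and 9.92 with low Kbr and 11.07, 10.35 and 9.08 with high Kbr, against 9.05, 8.86 and 9.47 in control, so that array 3 of the high dose lay within the controls. The differences were 1.45 ± 0.31, adjusted p = 0.00034 (2.74-fold), and 1.04 ± 0.31, adjusted p = 0.00466 (2.06-fold). The high-dose value was 0.59, adjusted p = 0.0861 without treated replicate 1 and 1.58, adjusted p = 7.94e-06 without treated replicate 3, and on the second probe set 0.45, adjusted p = 0.139.

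No other treatment passed for CXCL2. CdCl at 12 h read 10.93, 11.14 and 10.60, against 10.26, 10.22 and 10.09 in control, with no overlap and 0.70 ± 0.31, adjusted p = 0.0677. At 48 h the CdCl and Di arrays (10.64 to 11.21) enclosed those of control (10.67 to 10.89).

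CCL20 encodes the ligand of CCR6, which draws T cells and dendritic cells. After 12 h of CdCl it read 7.74, 7.76 and 7.42, against 6.34, 6.37 and 6.36 in control, with no overlap (1.29 ± 0.44, adjusted p = 0.0196; 2.44-fold higher). The call was lost with 1 array left out: the values were 1.23, adjusted p = 0.0537 without CdCl replicate 1 and 1.23, adjusted p = 0.0538 without CdCl replicate 2. By 48 h the CdCl arrays (6.80, 6.71 and 7.04) overlapped the controls (6.81, 7.28 and 6.91), and the Di arrays (6.28, 6.31 and 6.38) lay below all of them without passing (-0.68 ± 0.44, adjusted p = 0.23).

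CCL20 rose with both Kbr doses at 48 h, chiefly on arrays 1 and 2. Low Kbr read 7.31, 7.10 and 4.92 and high Kbr 6.11, 6.27 and 4.23, against 4.20, 4.76 and 4.28 in control. Array 3 of the low dose was just above the controls and array 3 of the high dose within them. The low-dose difference was 2.03 ± 0.44, adjusted p = 0.000432 (4.09-fold), and the high-dose one 1.13 ± 0.44, adjusted p = 0.0285 (2.18-fold). That high-dose value was 1.02, adjusted p = 0.0849 without control replicate 1, 1.06, adjusted p = 0.0712 without control replicate 3, 0.84, adjusted p = 0.144 without treated replicate 1, 0.76, adjusted p = 0.179 without treated replicate 2 and 1.78, adjusted p = 0.00056 without treated replicate 3. At 24 h neither dose passed (0.06 ± 0.44, adjusted p = 0.959, with low Kbr, and -0.47 ± 0.44, adjusted p = 0.429, with high Kbr).

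CCL2 encodes the monocyte chemoattractant MCP-1, which acts through CCR2, and it alone of the 9 genes was below control in all 8 treatments. The fall at 48 h passed for every treatment. CdCl read 3.26, 3.28 and 2.85 and Di 4.27, 4.004 and 3.70, against 6.04, 6.20 and 5.90 in control; the treated means were under the filter level, and both differences (-2.92 ± 0.48, adjusted p = 1.47e-05; and -2.06 ± 0.48, adjusted p = 0.000896) are given as at least 4.13-fold lower. Low Kbr read 4.10, 4.20 and 4.77 and high Kbr 3.33, 3.17 and 4.61, against 6.32, 7.43 and 6.42 in control (-2.36 ± 0.48, adjusted p = 0.000205, 5.14-fold lower; and -3.01 ± 0.48, adjusted p = 4.1e-06, at least 6.59-fold lower). None of these 4 treated groups overlapped its control, and each call held with any 1 array left out. The fibroblast marker list was also summed on the linear scale, although HK-2 is a single line and COL1A2 and PDGFRB were at background. The sum lay at 1421 to 1536 in Di and 2886 to 3460.1 in CdCl at 48 h, against 2585 to 2833 in control. It was lower with Di and higher with CdCl. With low Kbr it was 1185 to 1735 and with high Kbr 1052 to 1368 at 48 h, against 4385 to 4751 in control. The part of these marker genes, or of any cells they mark, in the CCL2 result was not tested.

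The earlier CCL2 values were less uniform. CdCl at 12 h read 5.51, 5.55 and 3.65, against 7.24, 6.37 and 6.05 in control, with array 3 apart from the others (-1.65 ± 0.48, adjusted p = 0.00652). That value was -1.03, adjusted p = 0.0925 without CdCl replicate 3 and -1.31, adjusted p = 0.051 without control replicate 1. High Kbr at 24 h read 4.24, 4.78 and 3.85, against 5.14, 6.61 and 4.69 in control, and the groups overlapped (-1.19 ± 0.48, adjusted p = 0.0486). It was -0.62, adjusted p = 0.342 without control replicate 2, -1.36, adjusted p = 0.0566 without control replicate 1, -1.16, adjusted p = 0.0995 without treated replicate 1 and -0.97, adjusted p = 0.17 without treated replicate 3. Di at 12 h and low Kbr at 24 h did not pass (-0.44 ± 0.48, adjusted p = 0.645, and -0.47 ± 0.48, adjusted p = 0.579).

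ICAM1 encodes the surface molecule that leukocyte integrins bind, and it was the least variable of the tested genes, with group means that spanned 0.79 log2 units. One treatment passed. Di at 48 h read 8.38, 8.32 and 8.27, against 9.07, 9.08 and 9.21 in control (-0.79 ± 0.19, adjusted p = 0.00126; 1.73-fold lower), with no overlap. CdCl at 48 h, at 8.84, 9.02 and 8.69, lay below control on every array without passing (-0.27 ± 0.19, adjusted p = 0.275), while a second ICAM1 probe set gave -0.73, adjusted p = 0.00597, and the dimmest one 0.06, adjusted p = 0.896. All Kbr groups overlapped their controls, with differences between 0.01 and 0.18.

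TNFAIP3 encodes A20, which removes and edits ubiquitin chains on NF-kB signalling proteins and so restrains the pathway. Its rise with CdCl was the largest difference from control of any of the 9 genes. At 12 h the CdCl arrays read 9.32, 9.57 and 9.38 and the controls 6.28, 6.14 and 6.46, a difference of 3.13 ± 0.28, adjusted p = 8.75e-10 (8.75-fold). After 48 h the CdCl arrays read 8.58, 8.47 and 8.63 and the controls 6.60, 6.83 and 7.12 (1.71 ± 0.28, adjusted p = 1.51e-05; 3.27-fold). With Di the arrays at 12 h (6.18, 6.20 and 5.42) and 48 h (7.31, 6.92 and 7.10) overlapped control and did not pass (-0.36 ± 0.28, adjusted p = 0.491, and 0.26 ± 0.28, adjusted p = 0.502). A second, dimmer TNFAIP3 probe set gave 1.08, adjusted p = 0.00452, for Di at 48 h, so that comparison depends on the probe set.

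In Kbr cells TNFAIP3 lay below control in all 4 comparisons. High Kbr at 48 h read 3.98, 3.17 and 4.69, against 4.86, 5.23 and 5.13 in control (-1.13 ± 0.28, adjusted p = 0.000985; at least 2.11-fold lower), and the value was -0.74, adjusted p = 0.0216 without treated replicate 2. Low Kbr at 24 h read 4.40, 3.84 and 5.04, against 5.20, 4.84 and 5.68 in control, with overlap (-0.82 ± 0.28, adjusted p = 0.0483). It did not pass without control replicate 1 (-0.84, adjusted p = 0.114), control replicate 3 (-0.60, adjusted p = 0.192), treated replicate 1 (-0.80, adjusted p = 0.0978) or treated replicate 2 (-0.52, adjusted p = 0.276). Low Kbr at 48 h gave -0.63 ± 0.28, adjusted p = 0.0662, and 0.0381 with the array number as a block. High Kbr at 24 h gave -0.62 ± 0.28, adjusted p = 0.0802, 0.0462 with the block, and -0.82, adjusted p = 0.0396 without control replicate 2.

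NFKBIA encodes IkB-alpha, the inhibitor that is destroyed on activation and made again as an NF-kB target. It fell at 48 h with both compounds of the first set. CdCl read 9.52, 9.57 and 9.35 and Di 9.45, 9.15 and 9.20, against 10.19, 9.93 and 10.20 in control, with no overlap (-0.62 ± 0.18, adjusted p = 0.00719, 1.54-fold lower; and -0.84 ± 0.18, adjusted p = 0.000469, 1.79-fold lower). At 12 h neither passed (-0.18 ± 0.18, adjusted p = 0.455, and -0.28 ± 0.18, adjusted p = 0.406). With Kbr at 24 h the replicates lay close together in every group: low Kbr read 10.80, 10.82 and 10.83 and high Kbr 10.96, 10.97 and 10.92, against 10.50, 10.47 and 10.54 in control. These non-overlapping differences missed the pooled test (0.31 ± 0.18, adjusted p = 0.281, and 0.44 ± 0.18, adjusted p = 0.0554), and the high-dose one passed with the array number as a block (adjusted p = 0.0336), as did TNFAIP3, which together bring the count in high Kbr at 24 h to 5. The share of all genes in that blocked fit is not given, so the count is a description. At 48 h array 3 of both doses stood apart upward, at 11.01 with low and 11.24 with high Kbr, while the remaining treated arrays read 10.14 to 10.42 and the controls 10.59, 10.57 and 10.50.

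**Figure D3:**
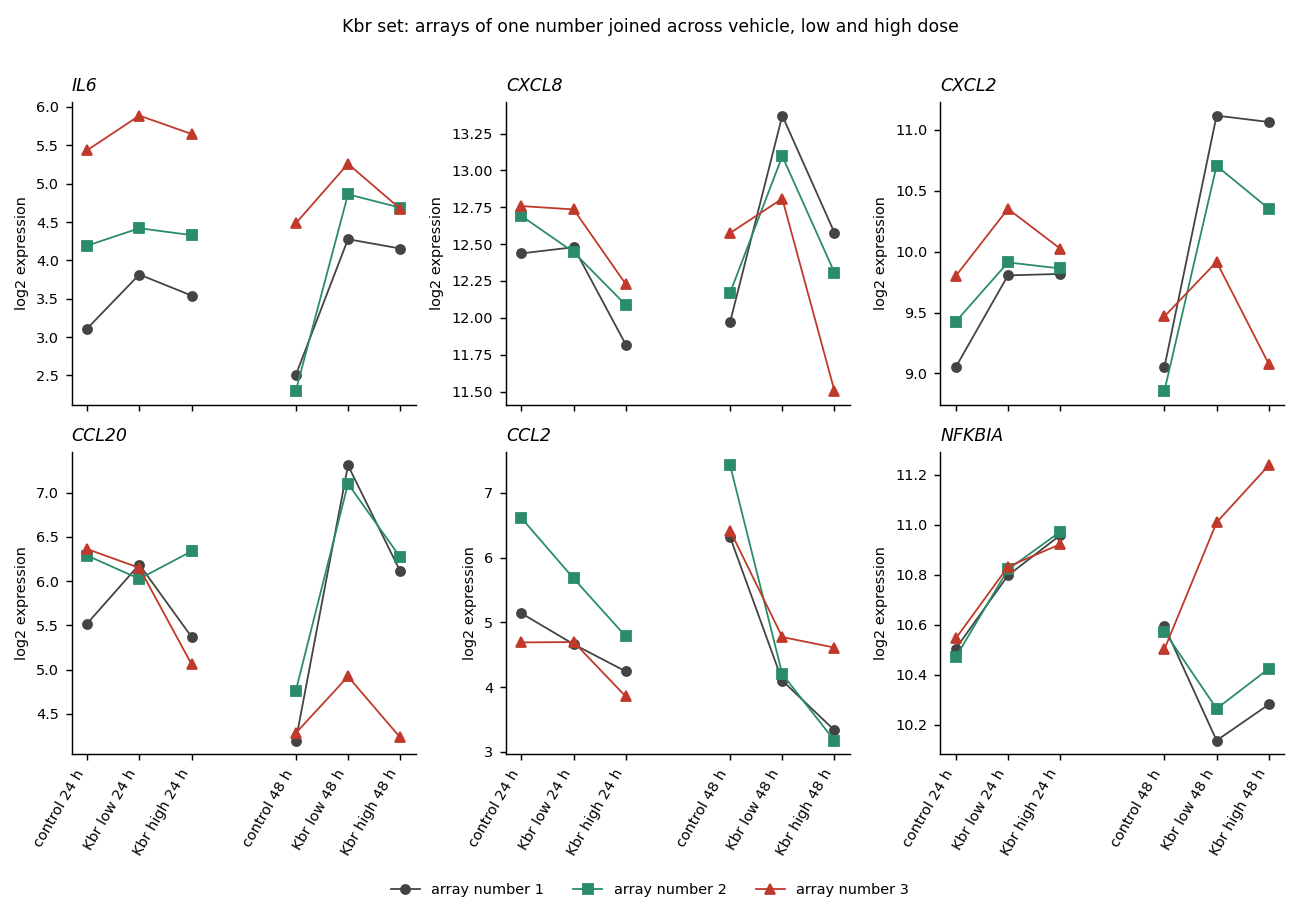
Log2 expression (y axis) of 6 genes on the 18 Kbr arrays (x axis, groups by time and dose), with arrays of one number joined. At 48 h array 3 of each dose is the lowest of its group for CXCL8, CXCL2 and CCL20 and the highest for CCL2 and NFKBIA, while at 24 h the NFKBIA lines coincide.

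On array 3 of both Kbr doses at 48 h CXCL8, CXCL2 and CCL20 were the lowest of their group and CCL2 and NFKBIA the highest, although CXCL8 with low Kbr was evenly spaced over its 3 arrays. In control at 48 h array 3 was the highest for CXCL8 and CXCL2, the lowest for NFKBIA and between the others for CCL20 and CCL2. With the 6 Kbr arrays of that number left out, a choice made after the values were seen, the 48 h differences from control were larger for IL6 (low Kbr 2.17, adjusted p = 5.99e-06; high Kbr 2.02, adjusted p = 6.77e-06), CXCL2 (low 1.96, adjusted p = 1.32e-07; high 1.75, adjusted p = 2.1e-07) and CCL20 (low 2.73, adjusted p = 2.76e-08; high 1.71, adjusted p = 5.16e-06). CXCL8 in high Kbr at 48 h then was 0.37, adjusted p = 0.0362, against -0.11 with all arrays. NFKBIA in low Kbr at 48 h became -0.38, adjusted p = 0.0294, whereas CCL2 in high Kbr at 24 h no longer passed (-1.36, adjusted p = 0.0558). ATF3, a stress-induced transcription factor chosen as an index gene, also stood apart on array 3 at 48 h, with 11.10, 10.73 and 8.44 in low Kbr and 11.54, 10.88 and 7.46 in high Kbr, against 6.71, 5.02 and 4.86 in control. HMOX1, the oxidant-response index gene, did not: array 3 of high Kbr read the highest of its group (11.26, 11.06 and 11.72, against 7.22, 7.36 and 7.98 in control).

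Ordered by group mean, neighbouring groups overlapped in most of the 11 neighbour pairs of each gene: 8 for CCL20, TNFAIP3 and NFKBIA, 9 for IL6, CXCL8 and CXCL2, 10 for LIF and ICAM1, and 11 for CCL2 and CXCL1. CdCl at 12 h was the highest group for IL6, CCL20 and TNFAIP3, CdCl at 48 h for LIF, and Di at 48 h for CXCL8 and CXCL2. The Kbr control at 48 h was the highest group for CCL2 and the lowest for IL6, CXCL2 and CCL20. High Kbr was the lowest group at 24 h for CXCL8 and LIF and at 48 h for TNFAIP3, and the highest at 24 h for NFKBIA, which was lowest in Di at 48 h. The group means spanned 5.48 log2 units for TNFAIP3, 3.59 for CCL2 and 3.23 for CCL20. These orders also run across the sets, whose arrays differ as described.

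CdCl and Di, given for the same times in one set, were compared directly, in 2 pairs over all 9 genes. The labels give no dose for either. At 12 h, 5 genes were higher with CdCl than with Di (all genes: 13.6%) and 0 were lower (22.1%). TNFAIP3 differed by 3.49 ± 0.28, adjusted p = 1.22e-10, IL6 by 2.15 ± 0.53, adjusted p = 0.00203, and CXCL8 by 0.93 ± 0.19, adjusted p = 0.000341. LIF differed by 0.84 ± 0.22, adjusted p = 0.00395, and CCL20 by 1.12 ± 0.44, adjusted p = 0.0488, a value whose call was lost with any 1 of the 6 arrays left out (adjusted p = 0.0679 to 0.119). CCL2 missed the threshold (-1.21 ± 0.48, adjusted p = 0.0501) and passed without CdCl replicate 1 (-1.51, adjusted p = 0.0315), CdCl replicate 2 (-1.53, adjusted p = 0.0281) or Di replicate 2 (-1.44, adjusted p = 0.0406). For NFKBIA the 95% interval of the difference ran from -0.28 to 0.47, and for CXCL2 from -0.35 to 0.92.

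At 48 h, 3 genes were higher with CdCl than with Di (20.5% of all genes) and 1 was lower (17.1%). TNFAIP3 was still higher (1.45 ± 0.28, adjusted p = 0.000174). CXCL8 was lower with CdCl (-0.67 ± 0.19, adjusted p = 0.0062). IL6 (1.41 ± 0.53, adjusted p = 0.0351) was lost with any 1 of the 6 arrays left out (adjusted p = 0.0585 to 0.0892), and ICAM1 (0.53 ± 0.19, adjusted p = 0.0314) with 5 of the 6 (up to 0.124, without CdCl replicate 2). A second ICAM1 probe set gave -0.02, adjusted p = 0.95, and the dimmest one 1.03, adjusted p = 0.00796, so the probe sets of ICAM1 disagree on this difference. LIF had an interval of -0.30 to 0.61, and CXCL2 one of -0.77 to 0.49.

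Between the Kbr doses, no gene passed at 24 h (all genes: 0.685% higher and 3.71% lower with the high dose; 1 of 9 at an unadjusted p below 0.05). At 48 h none was higher (6.46%) and 1 lower (17.3%) with the high than with the low dose. This was CXCL8, at 12.58, 12.31 and 11.51 with high and 13.37, 13.10 and 12.81 with low Kbr (-0.96 ± 0.19, adjusted p = 0.000475). CCL20 (-0.90 ± 0.44, adjusted p = 0.143) passed without low-dose replicate 3 (-1.67, adjusted p = 0.00194), TNFAIP3 (-0.50 ± 0.28, adjusted p = 0.214) without high-dose replicate 3 (-0.87, adjusted p = 0.0241) and CXCL2 (-0.41 ± 0.31, adjusted p = 0.365) without high-dose replicate 1 (-0.86, adjusted p = 0.0341). Rises made up 15.6% of all dose calls at 24 h and 27.1% at 48 h, 38.2% and 49.5% after centring, and 26.5% and 37.8% after quantile normalization.

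Timing was tested as the change of an effect between the times of a set. For CdCl, 1 of the 9 genes passed (all genes: 24.2% in either direction): the effect on TNFAIP3 at 48 h minus that at 12 h was -1.42 ± 0.40, adjusted p = 0.0103. For Di, 3 passed (29.0%): the effect was higher at 48 h for CXCL8 (1.12 ± 0.27, adjusted p = 0.00215) and LIF (1.14 ± 0.31, adjusted p = 0.00662) and lower for ICAM1 (-1.05 ± 0.27, adjusted p = 0.00409). The ICAM1 value was -0.57, adjusted p = 0.159, on its second probe set. On the CdCl and Di arrays alone the counts were 6 for CdCl and 6 for Di. The shares of all genes above belong to the fit on all arrays and do not stand beside these counts. CCL2 passed for Di without control 12 h replicate 1 (-1.95, adjusted p = 0.0411) and for CdCl without CdCl 12 h replicate 3 (-1.89, adjusted p = 0.0351). Of all calls in the CdCl test, 67.9% were higher at 48 h, and 56.6% after centring.

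For low Kbr, 1 gene passed (4.35% of all genes), CXCL8, with an effect higher at 48 h than at 24 h by 0.93 ± 0.27, adjusted p = 0.0466. The call was lost in 8 of 12 cases with 1 array left out (adjusted p up to 0.136, without control 24 h replicate 3), and without low Kbr 48 h replicate 1 the value was 0.79, adjusted p = 0.133. For high Kbr none passed (15.0% of all genes; 3 of 9 at an unadjusted p below 0.05). With the array number as a block the counts were 4 and 4: IL6, CCL2 and CCL20 joined for low Kbr (adjusted p = 0.0411, 0.0398 and 0.022), and IL6, CCL2, CCL20 and LIF passed for high Kbr (adjusted p = 0.0338, 0.0263, 0.0347 and 0.0149). Their changes of effect were 1.15, -1.83, 1.59 and 0.84 for high Kbr. Without high Kbr 48 h replicate 3, 5 genes passed for high Kbr in the fit without the block: CCL2 (-2.28, adjusted p = 0.0193), CCL20 (2.25, adjusted p = 0.00523), CXCL8 (0.79, adjusted p = 0.0149), CXCL2 (1.11, adjusted p = 0.0254) and NFKBIA (-0.65, adjusted p = 0.0407). The shares of all genes above belong to the fit on all arrays without the block, not to the counts under these alternatives. Rises made up 58.5% of all calls for low Kbr, 43.4% after centring and 47.7% after quantile normalization.

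The controls themselves changed with time in culture. In the CdCl and Di set ICAM1 was higher at 48 h than at 12 h (9.07, 9.08 and 9.21 against 8.67, 8.72 and 8.46; 0.50 ± 0.19, adjusted p = 0.0342), the only one of the 9 higher (all genes: 18.3%), and 0 were lower (27.3%). That call was lost with 5 of 6 arrays left out in turn (adjusted p up to 0.124, without 12 h replicate 3), and in the set alone 5 genes passed. In the Kbr set CCL20 was lower at 48 h than at 24 h (4.20, 4.76 and 4.28 against 5.52, 6.29 and 6.36; -1.64 ± 0.44, adjusted p = 0.0147), alone of the 9 (7.16% of all genes lower), and 0 were higher (5.08%). It was -1.49, adjusted p = 0.0975 without 24 h replicate 3 and -1.54, adjusted p = 0.0722 without 48 h replicate 1. With the block 4 passed, IL6, CCL2 and LIF being added (adjusted p = 0.00394, 0.0339 and 0.024). The shares of all genes above are not those of the set alone or of the blocked fit. The CCL20 rise with Kbr at 48 h is thus measured against a control lower than that of 24 h: the treated means of 6.44 and 5.54 stand beside 6.12 and 5.59 in the same treatments at 24 h. The same limit applies to IL6, whose control mean was 3.10 at 48 h and 4.25 at 24 h. Its treated means at 48 h, 4.80 with low and 4.51 with high Kbr, stand beside 4.71 and 4.51 at 24 h.

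At 48 h the effects of CdCl and Di were set against that of high Kbr, each relative to its own control. CdCl and high Kbr differed for 3 of 9 genes (50.1% of all genes in either direction), and Di and high Kbr for 5 (43.5%). TNFAIP3 was higher in both, by 2.84 ± 0.40, adjusted p = 1.26e-06, for CdCl and 1.39 ± 0.40, adjusted p = 0.0056, for Di. NFKBIA was lower in both (-0.72 ± 0.26, adjusted p = 0.0237; and -0.93 ± 0.26, adjusted p = 0.0047), and the CdCl value was -0.42, adjusted p = 0.116 without high Kbr replicate 3. LIF was higher with CdCl (0.83 ± 0.31, adjusted p = 0.0284), a call that 4 of the 12 arrays took away when left out (adjusted p up to 0.073, without CdCl replicate 2). With Di, CXCL8 was higher (1.09 ± 0.27, adjusted p = 0.00162) and CCL20 (-1.80 ± 0.62, adjusted p = 0.0201) and ICAM1 (-0.91 ± 0.27, adjusted p = 0.00749) lower. With the array number as a block 2 more differences passed, CCL20 between CdCl and high Kbr (-1.28; adjusted p = 0.0483, and 0.0907 without it) and LIF between Di and high Kbr (0.67; adjusted p = 0.0246, and 0.0835 without it). Between Di and high Kbr, CCL20 was -1.52, adjusted p = 0.0641 without high Kbr replicate 1 and -1.44, adjusted p = 0.0749 without replicate 2. For IL6 and CCL2 the intervals of the CdCl comparison ran from -0.91 to 2.14 and from -1.29 to 1.49. Sets and compounds cannot be told apart in these comparisons beyond the subtraction of each set's control.

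Across the 12 group means, each relative to its set, the genes fell into no single pattern. As descriptions over 12 groups that share controls and a normalization, IL6 followed CCL20 (r = 0.69) and TNFAIP3 followed LIF (r = 0.69), while CXCL2 ran against CCL2 (r = -0.71) and CXCL8 against ICAM1 (r = -0.67). Among the 6265 genes whose centred group means ranged over at least 1 log2 unit, the closest to CCL2 were HOXA-AS2 (r = 0.99), P3H2 (0.97) and FGFR2 (0.97), and 154 genes exceeded 0.9. For IL6 they were CHST11 (0.94), KHDRBS3 (0.92) and ZNF143 (0.92), and for TNFAIP3 ZNF554, TNRC6C and MAF (0.95, 0.95 and 0.94). NFKBIA was matched by TERF1, GPER1 and SMARCD2 (0.95, 0.94 and 0.94), LIF by MCC, KLF7 and INPP4B (0.91, 0.89 and 0.87), and CXCL2 by C8orf76, CDC73 and AP1AR (0.91, 0.89 and 0.88). CXCL8 (DRC9, 0.87; ADRB1, 0.80; SLC2A3, 0.78), ICAM1 (PAXIP1-DT, 0.78; ZNF30, 0.78; CUTALP, 0.78) and CCL20 (FHL2, 0.66; ENTPD7, 0.63; ISCA1, 0.63) had no gene above 0.9.

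**Figure D4:**
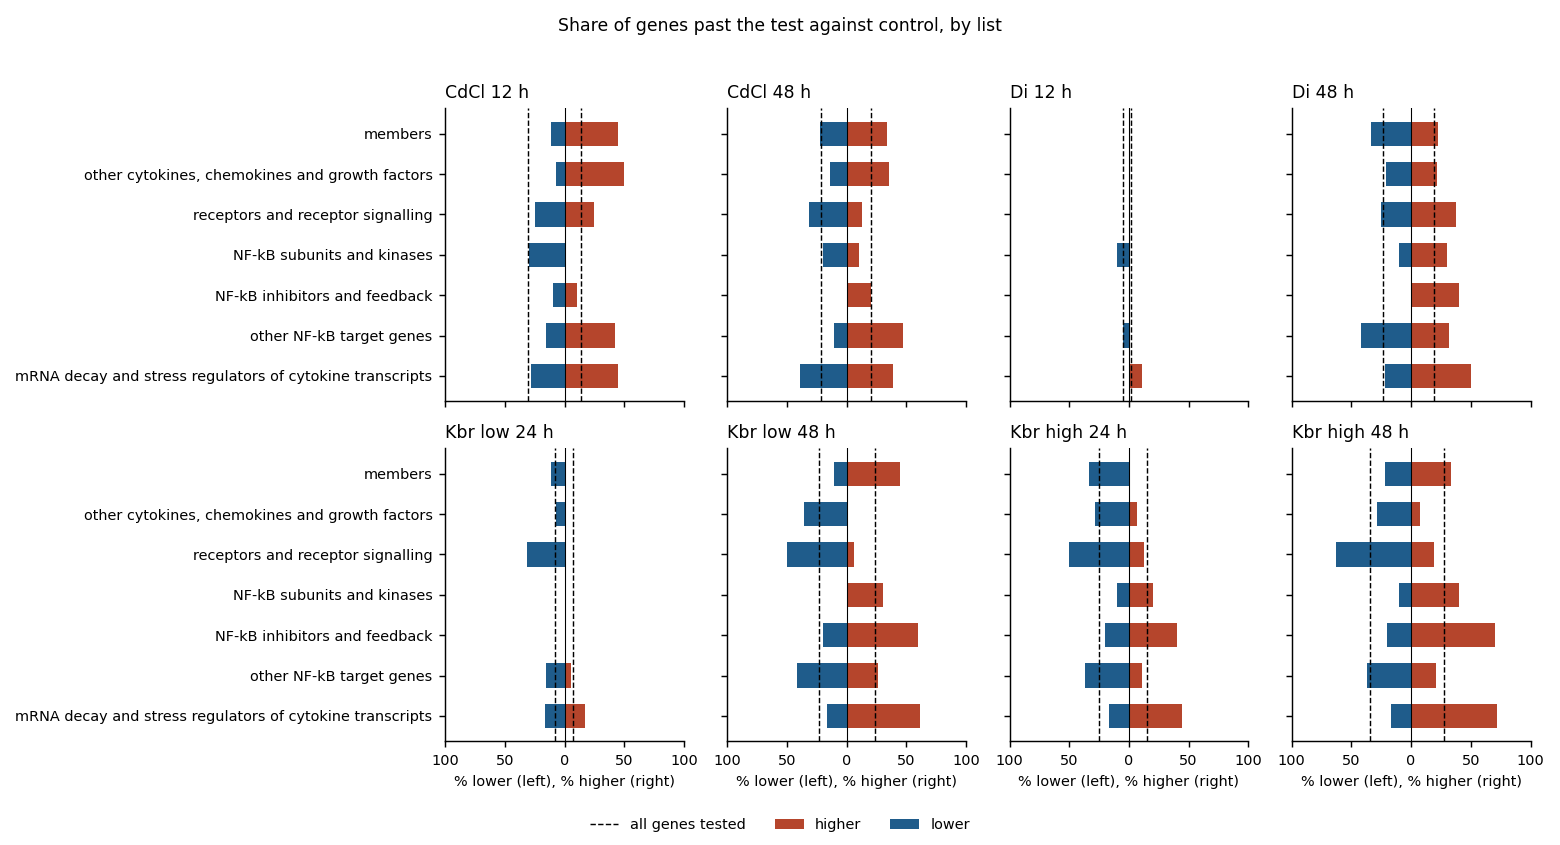
Share of genes past the test against control (x axis, percent; right, higher; left, lower) among the 9 tested genes and 6 lists of related genes (y axis), for the 8 treatments; dashed lines mark the shares among all 11092 genes. With high Kbr at 48 h, 10 of 16 receptors and receptor signalling genes are lower and 13 of 18 mRNA decay and stress regulators higher. With low Kbr at 24 h these counts are 5 and 3.

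Other secreted factors were measured for 14 of 26 listed genes. With CdCl at 12 h, 7 rose and 1 fell (all genes: 13.4% higher and 30.5% lower), with a median difference of 0.53, against -0.16 for all genes. IL11, a cytokine of the gp130 family, read 7.27, 7.41 and 7.69 in CdCl cells and 2.48, 2.52 and 2.53 in control, where it was at background (at least 11-fold higher, adjusted p = 3.02e-20). CXCL5, another neutrophil chemokine, rose by 2.38 ± 0.33 (adjusted p = 1.5e-06) and was still higher at 48 h (1.93 ± 0.33, adjusted p = 2.36e-05). IL1A, an alarm cytokine, rose to a mean of 4.14, against 2.63 in control (at least 1.1-fold higher, adjusted p = 3.05e-06), and IL23A, a subunit of interleukin-23, rose at 48 h (1.67 ± 0.19, adjusted p = 3.03e-08). TNFSF10, the death ligand TRAIL, fell: in Di cells at 48 h it read 6.88, 6.53 and 7.09, against 10.93, 10.96 and 11.04 in control. Its differences were -4.14 ± 0.22 with Di (adjusted p = 1.02e-14), -2.16 ± 0.22 with CdCl (adjusted p = 7.23e-09), -2.31 ± 0.22 with low Kbr (adjusted p = 5.15e-09) and -3.53 ± 0.22 with high Kbr (adjusted p = 2.54e-13), all at 48 h.

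Of the same 14 secreted factors, 0 rose and 5 fell with low Kbr at 48 h (all genes: 23.8% higher and 23.2% lower). With high Kbr at 48 h, 1 rose and 4 fell (all genes: 27.3% higher and 34.5% lower). At this high dose falls were no more frequent than among all genes, and rises were fewer. The medians were -0.26 with low and -0.27 with high Kbr, against 0.00 and -0.06 for all genes. IL1B, the inflammasome cytokine, read 3.79, 3.81 and 3.82 with high Kbr, against 5.00, 6.06 and 4.99 in control (at least 2.54-fold lower, adjusted p = 6.65e-06). CX3CL1, the membrane-bound chemokine fractalkine, fell by 1.36 ± 0.20 (adjusted p = 9.8e-07).

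Among 16 of 24 receptors and receptor signalling genes measured, 3 rose and 10 fell with high Kbr at 48 h (all genes: 27.3% higher and 34.5% lower; median -0.58), and 1 rose and 8 fell with low Kbr at 48 h (all genes: 23.8% higher and 23.2% lower). At 24 h 5 fell with low Kbr (8.28% of all genes lower) and 8 with high Kbr (25.3%). IL1R1, the receptor of IL1A and IL1B, read 3.40, 3.53 and 4.10 with high Kbr, against 5.56, 6.43 and 5.75 in control (at least 3.77-fold lower, adjusted p = 7.17e-08). STAT3, which carries the IL6 and LIF signal to the nucleus, fell by 1.31 ± 0.13 (adjusted p = 1.5e-09), and SOCS3, the STAT3 target that shuts the same receptors down, by 1.43 ± 0.20 (adjusted p = 8.73e-07). With Di at 48 h SOCS3 was also lower (-1.31 ± 0.20, adjusted p = 6.48e-06), whereas OSMR, which pairs with gp130, and IL1RAP, the co-receptor of IL1R1, were higher (0.99 ± 0.10, adjusted p = 3.37e-09; and 1.21 ± 0.12, adjusted p = 2.44e-09). LIFR, the LIF receptor, fell with CdCl at 48 h (-1.68 ± 0.39, adjusted p = 0.000818), in the cultures in which LIF rose.

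Of the NF-kB subunits and kinases, 10 of 11 were measured, and with CdCl their shares lower were near those of all genes. At 12 h IKBKB, a kinase of the IkB proteins, fell (-1.16 ± 0.21 at 12 h, adjusted p = 7.3e-05), as did NFKB1, which encodes p50 (-0.47 ± 0.11 at 12 h, adjusted p = 0.000689; -0.51 ± 0.11 at 48 h, adjusted p = 0.00026). MAP3K7 also fell at 12 h (-0.33 ± 0.10, adjusted p = 0.00866), and the counts were 0 higher and 3 lower at 12 h (all genes: 13.4% higher and 30.5% lower) and 1 higher and 2 lower at 48 h (all genes: 20.7% higher and 22.0% lower). With high Kbr at 48 h, 4 rose and 1 fell (all genes: 27.3% higher and 34.5% lower); IKBKB fell by 1.37 ± 0.21 (adjusted p = 2.7e-06). MAP3K14, the kinase NIK of the non-canonical pathway, rose (0.80 ± 0.18, adjusted p = 0.000301).

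Of 10 measured among 12 other inhibitors and feedback genes, 7 rose and 2 fell with high Kbr at 48 h (all genes: 27.3% higher and 34.5% lower), and 6 rose and 2 fell with low Kbr at 48 h (all genes: 23.8% higher and 23.2% lower; medians 0.38 and 0.29). TNFAIP3, not in that list, fell with high Kbr at 48 h, and NFKBIA differed by 0.09 ± 0.18, adjusted p = 0.698. N4BP1, which restrains NF-kB signalling, rose by 1.40 ± 0.16 with high Kbr (adjusted p = 2.64e-08), and TRAF3, which keeps MAP3K14 in check, by 1.00 ± 0.13 (adjusted p = 2.46e-07), while the deubiquitinase CYLD fell by 1.01 ± 0.19 (adjusted p = 5.48e-05). With CdCl at 12 h, where TNFAIP3 stood far above control, 1 of the 10 rose and 1 fell (all genes: 13.4% higher and 30.5% lower).

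Other NF-kB targets, 19 of 28 measured, split in direction. With CdCl 8 rose and 3 fell at 12 h (all genes: 13.4% higher and 30.5% lower), and 9 rose and 2 fell at 48 h (all genes: 20.7% higher and 22.0% lower; medians 0.13 and 0.35). GADD45B, a stress-induced growth arrest gene, read 11.54, 11.51 and 11.61 in CdCl cells at 48 h, against 6.82, 7.05 and 7.14 in control (adjusted p = 9.85e-15), and LCN2, the injury marker NGAL, rose by 2.85 ± 0.13 with CdCl and 2.00 ± 0.13 with Di (adjusted p = 3.08e-16 and 4.88e-13). With Di at 48 h 6 rose and 8 fell (all genes: 19.1% higher and 23.9% lower). Low Kbr at 48 h gave 5 higher and 8 lower (all genes: 23.8% higher and 23.2% lower), and high Kbr at 48 h 4 higher and 7 lower (all genes: 27.3% higher and 34.5% lower). VCAM1, an adhesion molecule like ICAM1, fell in every treatment at 48 h. It read 4.29, 4.60 and 5.90 with Di and 7.10, 7.30 and 6.89 with CdCl, against 9.25, 9.56 and 9.34 in control, and 3.67, 3.90 and 4.21 with low Kbr and 3.07, 3.70 and 3.73 with high Kbr, against 6.70, 6.99 and 6.84 in control (adjusted p = 4.02e-13, 2.09e-07, 6.18e-09 and 7.65e-11). Complement C3 was lower at 48 h with Di (-1.70 ± 0.20, adjusted p = 6.91e-08), low Kbr (-2.24 ± 0.20, adjusted p = 1.54e-09) and high Kbr (-2.76 ± 0.20, adjusted p = 3.8e-12). It was also lower with Di at 12 h (-0.72) and at 24 h with low (-0.90) and high Kbr (-1.16). IER3, an early survival gene, rose at 48 h with high Kbr (1.58 ± 0.17, adjusted p = 5.44e-09) and low Kbr (1.37 ± 0.17, adjusted p = 2.38e-07).

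The mRNA decay and stress regulators, 18 of 19 measured, include AP-1 and ATF factors, whose binding to the promoters of the 10 genes was not measured. They also include proteins that stabilize or degrade cytokine messenger RNA, and general stress genes such as HMOX1, HSF1, NFE2L2 and KEAP1. The list was chosen with earlier results of these data known, so its shares are descriptions. With low Kbr 3 rose and 3 fell at 24 h (all genes: 6.93% higher and 8.28% lower), and 11 rose and 3 fell at 48 h (all genes: 23.8% higher and 23.2% lower). With high Kbr 8 rose and 3 fell at 24 h (all genes: 15.4% higher and 25.3% lower), and 13 rose and 3 fell at 48 h (all genes: 27.3% higher and 34.5% lower; median 0.57). With Di at 48 h 9 rose and 4 fell (all genes: 19.1% higher and 23.9% lower). With CdCl 8 rose and 5 fell at 12 h (all genes: 13.4% higher and 30.5% lower), and 7 rose and 7 fell at 48 h (all genes: 20.7% higher and 22.0% lower). ATF3 differed most from control with CdCl at 12 h, at 11.58, 11.68 and 11.67, against 4.54, 4.88 and 3.96 (adjusted p = 3.44e-09). The control of that set was itself higher at 48 h than at 12 h by 5.52 ± 0.69 (adjusted p = 2.33e-07). At 48 h ATF3 averaged 11.95 with CdCl and 12.95 with Di, against 9.98 in control. FOSL1, an AP-1 subunit, rose with Di at 48 h to 7.78, against 3.10 in control (at least 13.8-fold higher, adjusted p = 6.96e-09), and with CdCl at 48 h to 6.45 (at least 5.47-fold higher, adjusted p = 2.68e-06). ZFP36, which encodes tristetraprolin, a protein that degrades cytokine transcripts, rose with Di at 12 h (0.59 ± 0.13, adjusted p = 0.00624) and fell with low Kbr at 24 h (-0.75 ± 0.13, adjusted p = 0.000349).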

How the data were processed

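Expression was measured with 36 Affymetrix arrays, 3 for each of 12 groups taken from the sample labels. The values were deposited by the authors as log2 expression, made with GCRMA per the submitters' processing notes, for 54675 probe sets, and were used as deposited; no version of GCRMA is given in these sources. Probe sets were named from the platform annotation: 41091 named 1 gene, 1801 several and 11721 none. Probe sets above 4 on at least 3 arrays were kept, 1 for each gene by highest mean, which left 11092 genes. With limma 3.58.1 in R 4.3.3, 1 model of 12 group means was fitted to all 36 arrays, and p-values were Benjamini-Hochberg adjusted over all genes (threshold 0.05). The model was tested on simulated data. The number of arrays limits the precision.

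The 10 genes and the lists of related genes were chosen with earlier results of these data known. All 10 genes were described, and of each list of related genes, up to 3 with the largest differences past the test were eligible to be named in each comparison with control. HMOX1 and ATF3 were index genes. For each tested gene the 3 genes most like it were named, likeness being the Pearson correlation of group means after centring within each set, among genes whose centred means ranged over at least 1 log2 unit. Arrays of equal number correlated above 0.1 in their deviations from the group means in 45 of 45 pairs of the Kbr set (0.22 to 0.70), so these numbers pair the arrays, and in 8 of 45 pairs of the CdCl and Di set, where they do not. Alternatives were other filters, scalings, probe sets, array weights, variance trends, blocks and arrays entering the fit, and each array left out in turn. No p-value is adjusted over the 10 genes alone. Promoter stretches are from RefSeq (GRCh38.p14).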

Additional observations from a re-analysis of the deposited data

Results flagged for a closer look

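The effects below differed between times or between compounds in a test of the difference itself, with adjusted p-values of limma given above. Between the times of a set, the log2 effect of CdCl on TNFAIP3 changed by -1.42 (48 h minus 12 h). The effect of Di changed by 1.12 for CXCL8, 1.14 for LIF and -1.05 for ICAM1, and that of low Kbr by 0.93 for CXCL8 (48 h minus 24 h). At 48 h, the CdCl effect minus the high Kbr effect was 2.84 for TNFAIP3, 0.83 for LIF and -0.72 for NFKBIA. The Di effect minus the high Kbr effect was 1.39 for TNFAIP3, 1.09 for CXCL8, -1.80 for CCL20, -0.91 for ICAM1 and -0.93 for NFKBIA. No group had over 3 arrays, so single arrays were not tested as outliers.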

How the results depend on the processing

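Of 3443 values of single genes under the alternatives, 3153 kept their direction and their side of the threshold, 117 lost the call, 169 gained one and 4 reversed; a further 105, counted among those kept, changed sign without a call under either setting. The reversals were ICAM1 in CdCl against Di at 48 h on a second probe set (-0.0245), NFKBIA in CdCl (0.0091) and Di (0.0139) at 48 h on a probe set at background, and CXCL8 in high Kbr at 48 h with the Kbr arrays numbered 3 left out (0.37). Of 29 calls against control, 19 held with each array left out in turn and 10 did not. The cause of the changes was not tested.

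Counts of the 9 genes past the test moved by over 1.5 times as follows. The shares of all genes under each alternative are not given, so a moved count is not read as a result about these genes. Low Kbr at 24 h had 1, and 0 with no filter, quantile normalization, median centring, array weights, only the groups compared or only the set compared, 2 with the Kbr arrays numbered 3 left out, and 0 to 1 with 1 array left out. High Kbr at 24 h had 3, 5 with the replicate block, 0 in the set alone and 0 to 3 with 1 array left out. High Kbr at 48 h had 5, 2 with only the groups compared, 3 in the set alone and 3 to 4 with 1 array left out. Di at 12 h had 0, and 1 in the set alone. Between Kbr doses the count was 0 at 24 h, and 1 with array weights. At 48 h it was 1, 2 with the mean of probe sets, 3 with array weights, 0 with only the groups compared, 3 without the arrays numbered 3 and 1 to 2 with 1 array left out. CdCl against Di at 48 h had 4, 2 with no filter and 2 to 3 with 1 array left out.

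For the change of effect with time, CdCl had 1, 5 with array weights, 2 with the block, 5 with only the groups compared, 6 in the set alone and 1 to 2 with 1 array left out. Di had 3, and 6 with array weights, only the groups compared or the set alone. Low Kbr had 1, 0 with no filter, 2 with array weights, 4 with the block, 0 with only the groups compared or the set alone, 5 without the arrays numbered 3 and 0 to 2 with 1 array left out. High Kbr had 0, 3 with array weights, 4 with the block, 6 without the arrays numbered 3 and 0 to 5 with 1 array left out. The CdCl against the high Kbr effect had 3, and 5 with array weights. For controls over time, the CdCl and Di set had 1, 0 with no filter, 2 with the mean of probe sets, array weights or the block, 6 with only the groups compared, 5 in the set alone and 0 to 1 with 1 array left out. The Kbr set had 1, 4 with the block, 0 with only the groups compared or the set alone, 3 without the arrays numbered 3 and 0 to 3 with 1 array left out.

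Leaving out the arrays numbered 3 was chosen after seeing the data. In the Kbr set every array correlated best with its own number, in the CdCl and Di set 5 of 18 did. With 3 arrays a group, small differences of IL6 and CCL20 in the Kbr set could not be detected in the fit without the block. The SE of a difference from control was 0.53 there and 0.27 with the block for IL6. For CCL20 it was 0.44 and 0.38.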
